A study of Mus musculus with 4 samples.

Results

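The integrated stress response and the serine synthesis pathway were followed through 41 mouse genes in the cerebral cortex of Ndrg2-/- and wild-type mice. The genes were chosen by name: the transcription factors and target genes of the ATF4 and CHOP axis, the eIF2α kinases, the enzymes of serine, one-carbon and proline synthesis, aminoacyl-tRNA synthetases, and the genes of the IRE1 and ATF6 arms of the unfolded protein response. A probe was assigned to a gene through its transcript accession. Of the 41 genes, 40 were matched, by 47 probes, and all 40 were tested among 15759 genes in all, with 46 of their probes. Pycr1 was not analysed here, and 1 of the probes for Shmt1 was too dim to be kept.

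The integrated stress response is a shared pathway of stressed cells. Kinases that sense amino acid shortage, haem shortage, double-stranded RNA or misfolded protein phosphorylate the initiation factor eIF2α, which lowers general translation and favours translation of the transcription factor ATF4. ATF4 in turn switches on genes for amino acid import, serine and asparagine synthesis and tRNA charging, and it induces CHOP. The unfolded protein response of the endoplasmic reticulum (ER) feeds into this pathway through PERK and has a pair of further sensors, IRE1 and ATF6, whose transcription factors XBP1s and ATF6f induce ER chaperones and folding enzymes. In brain, serine is made largely by astrocytes, the cells that also express Ndrg2, an N-myc downstream regulated gene.

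Each of 4 dual-colour Agilent arrays carried RNA of 1 wild-type sample, dyed with Cy3, and 1 sample labelled Ndrg2-/-, dyed with Cy5. The mice were males aged 3 months on a C57BL/6N background, and 200 ng of total RNA from the cerebral cortex was used. The labels number the pairs 1 to 4 and give neither the construction of the Ndrg2 allele nor whether each sample was 1 animal or a pool, so p-values speak only to how far these samples vary, which may be technical. No array had its dyes exchanged, so dye and genotype cannot be told apart in any value below. The labelling text speaks of plant shoots, but all 8 of 8 listed markers of cortical neurons were well above background.

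Array quality was alike across the set. Median raw signals were 94 to 122 in the green channel (background 22 to 26) and 283 to 335.5 in the red channel (background 87 to 96). Between 70.6% and 73.4% of probes per channel passed Feature Extraction's test against background. The Ndrg2 probe did not fall in the samples labelled knockout: its log2 ratio of labelled knockout over wild type was 0.11, 0.37, 0.40 and 0.38 on arrays 1 to 4 (0.32 ± 0.14, SD, n = 4 arrays, limma adjusted p = 0.0173). The sources used here do not say whether this probe lies in the deleted part, so it does not check the labels, and the samples are called labelled knockout throughout.

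Of the 40 genes, 8 rose and 2 fell in the samples labelled knockout at an adjusted p under 0.05 (limma). That is 20% and 5% of the genes, against 9.12% higher and 5.84% lower among all genes tested, or 25% against 15.0% in either direction. The excess depended on the processing: from the processed signals, 7.5% of the 40 genes were called against 8.43% of all genes. All changes were small. The furthest mean log2 ratio among the 10 genes was 0.38, and 0 of the 40 genes passed 1.5 fold by the mean or on all 4 arrays, against 0.0952% of all genes on all 4 arrays. The median over the 40 genes was 0.02, beside 0.01 over all genes tested. By group, 5 of the 8 that rose belonged to the IRE1 and ATF6 arms, 2 to serine and proline synthesis and 1 to the eIF2α kinases, and the 2 that fell were an ATF4 target and a tRNA synthetase. With arrays only centred on the median, where the median of all genes was 0.28, the ATF4 target read 0.32 and the synthetase 0.20. That setting leaves ratios that vary with brightness. In bulk tissue a change in the number of cells of a type cannot be told apart from a change in RNA per cell.

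**Figure D1:**
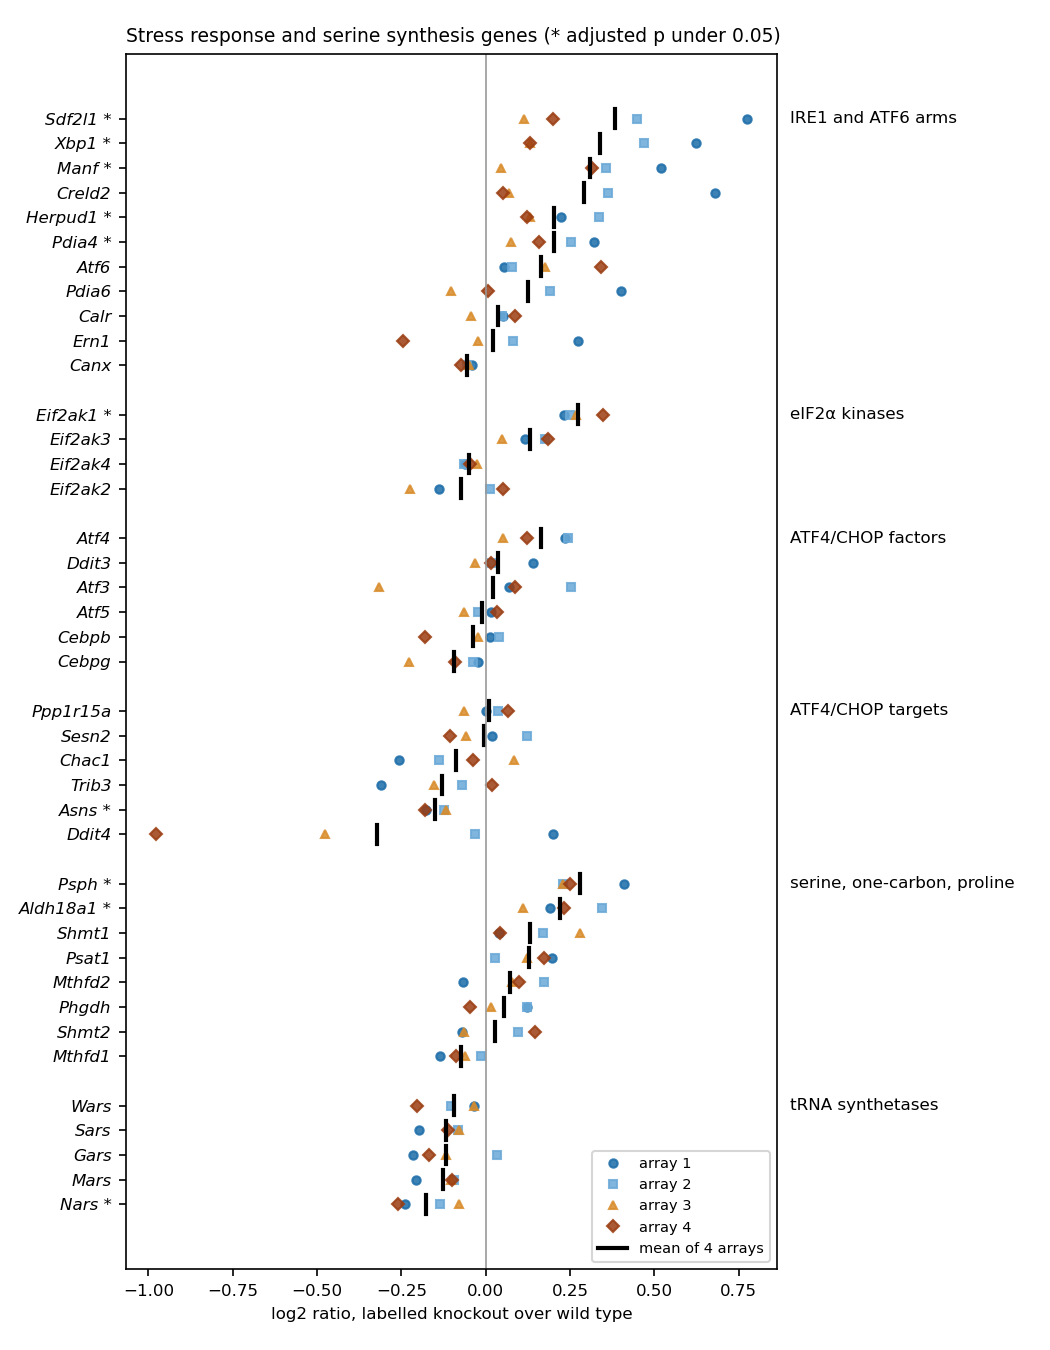
Log2 ratio of labelled knockout over wild type (horizontal axis) for the 40 genes tested, in their 6 groups; each symbol is 1 array, black bars are means of 4 arrays, and an asterisk marks an adjusted p under 0.05 (limma). The IRE1 and ATF6 arm genes lie mostly right of 0 with wide spreads, and the 5 tRNA synthetase means lie left of 0 after loess. With median centring alone, where the median of all genes is 0.28, Nars and Mars lie below that median at 0.20 and 0.18. Gars, Sars and Wars lie above it at 0.40, 0.35 and 0.37, and ratios in that setting vary with brightness.

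The groups differed in where they lay. Of the 40 genes, 14 had a ratio above 0 on all 4 arrays and 9 below, against 24.1% and 18.6% of all genes. The median log2 ratio over the 11 genes of the IRE1 and ATF6 arms was 0.32, 0.25, 0.07 and 0.12 on arrays 1 to 4, above that of all genes, 0.01 to 0.02, on each array. Over the 6 factors of the ATF4 and CHOP axis it was 0.04, 0.03, -0.05 and 0.03, and over their 6 target genes -0.09, -0.05, -0.09 and -0.07. The 5 tRNA synthetases had medians of -0.21, -0.09, -0.08 and -0.17. So the medians of the ER arm genes and of the ATF4 targets lay on opposite sides of 0 on all 4 arrays after loess, whereas with median centring alone they were 0.58 and 0.28, beside 0.28 over all genes.

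On each array the median was set against the other groups. The median of the ER arms exceeded that of the ATF4 targets by 0.41, 0.30, 0.16 and 0.19 on the log2 scale. It exceeded that of the tRNA synthetases by 0.53, 0.35, 0.15 and 0.29, and that of the ATF4 and CHOP factors by 0.28, 0.22, 0.12 and 0.10. Against the serine, one-carbon and proline enzymes the difference was 0.24, 0.11, -0.02 and 0.00, so these groups were not ordered alike on all arrays. Against the 4 eIF2α kinases it was 0.30, 0.16, 0.06 and 0.01. These differences are descriptions of chosen lists and carry no test.

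**Figure D2:**
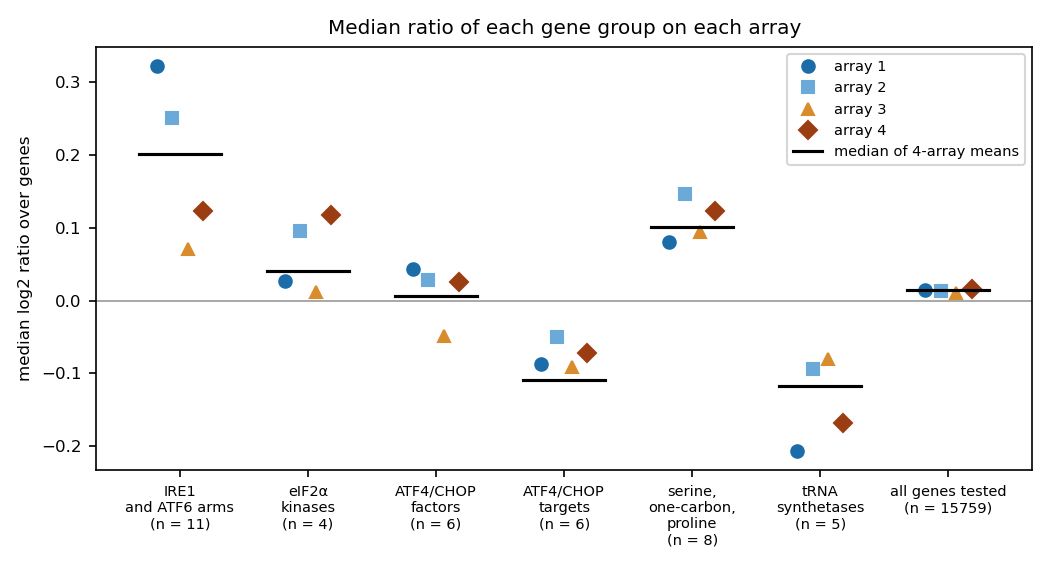
Median log2 ratio of labelled knockout over wild type over the genes of each group (vertical axis), with 1 symbol per array and a bar for the median of the 4-array means; n is the number of genes. The IRE1 and ATF6 arms lie at 0.07 to 0.32, the tRNA synthetases at -0.21 to -0.08 and all genes tested at 0.01 to 0.02, after loess. With median centring alone the synthetases' median is 0.35 and that of all genes 0.28, and ratios then vary with brightness.

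Among the sensors and factors of the ER arms, Xbp1, which encodes the factor that IRE1 activates by splicing its mRNA, rose. Its log2 ratio was 0.62, 0.47, 0.13 and 0.13 on arrays 1 to 4 (0.34 ± 0.25, SD, n = 4, limma adjusted p = 0.0439). Every labelled knockout signal, 13.62 to 13.95 on the log2 scale, was above every wild-type signal, 13.29 to 13.52, but arrays 3 and 4 showed little of the rise. The sensors themselves did not pass the test. Ern1, which encodes IRE1, read 0.27, 0.08, -0.02 and -0.24 (limma adjusted p = 0.878), and Atf6 read 0.06, 0.08, 0.17 and 0.34 (0.16 ± 0.13, SD, n = 4, limma adjusted p = 0.0911). The array with the highest ratio of Xbp1 was thus the one with the lowest ratio of Atf6. Whether the Xbp1 probe reads the spliced or the unspliced mRNA is not given in the sources used here.

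Also higher were 4 genes of ER-resident products: Sdf2l1, Manf, Herpud1 and Pdia4. Sdf2l1 encodes a partner of the chaperone BiP, and its ratio was 0.78, 0.45, 0.11 and 0.20 (0.38 ± 0.30, SD, n = 4, limma adjusted p = 0.0472). Its labelled knockout signals, 9.26 to 9.70, did not overlap the wild-type signals, 8.92 to 9.24. Manf, whose product is a secreted and ER-retained stress-induced protein, read 0.52, 0.36, 0.05 and 0.31 (0.31 ± 0.20, SD, n = 4, limma adjusted p = 0.0341). In both genes array 1 was highest and array 3 lowest. Herpud1, a component of ER-associated degradation, read 0.22, 0.33, 0.13 and 0.12 (0.20 ± 0.10, SD, n = 4, limma adjusted p = 0.0356). Pdia4, a protein disulfide isomerase, read 0.32, 0.25, 0.08 and 0.16 (0.20 ± 0.11, SD, n = 4, limma adjusted p = 0.0401). The signals of Manf, Herpud1 and Pdia4 overlapped between the groups, although the ratio was above 0 on each array.

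The other ER folding genes did not pass. Creld2, another ER stress-induced gene, had ratios of 0.68, 0.36, 0.07 and 0.05 (0.29 ± 0.30, SD, n = 4, limma adjusted p = 0.0968); its signals did not overlap between the groups, yet arrays 3 and 4 were close to 0. Both probes of Pdia6, a further disulfide isomerase, gave like means, 0.12 and 0.11, with array 3 below 0. Calr and Canx, the lectin chaperones calreticulin and calnexin, lay close to 0, with means of 0.04 and -0.05 and 95% intervals of -0.06 to 0.13 and -0.14 to 0.03. Canx read -0.04 to -0.07 on every array, a small shift with an SD of 0.01. Over the 40 genes, all labelled knockout signals lay above all wild-type signals for 6 and below for 3, against 9.02% and 6.20% of all genes tested.

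**Figure D3:**
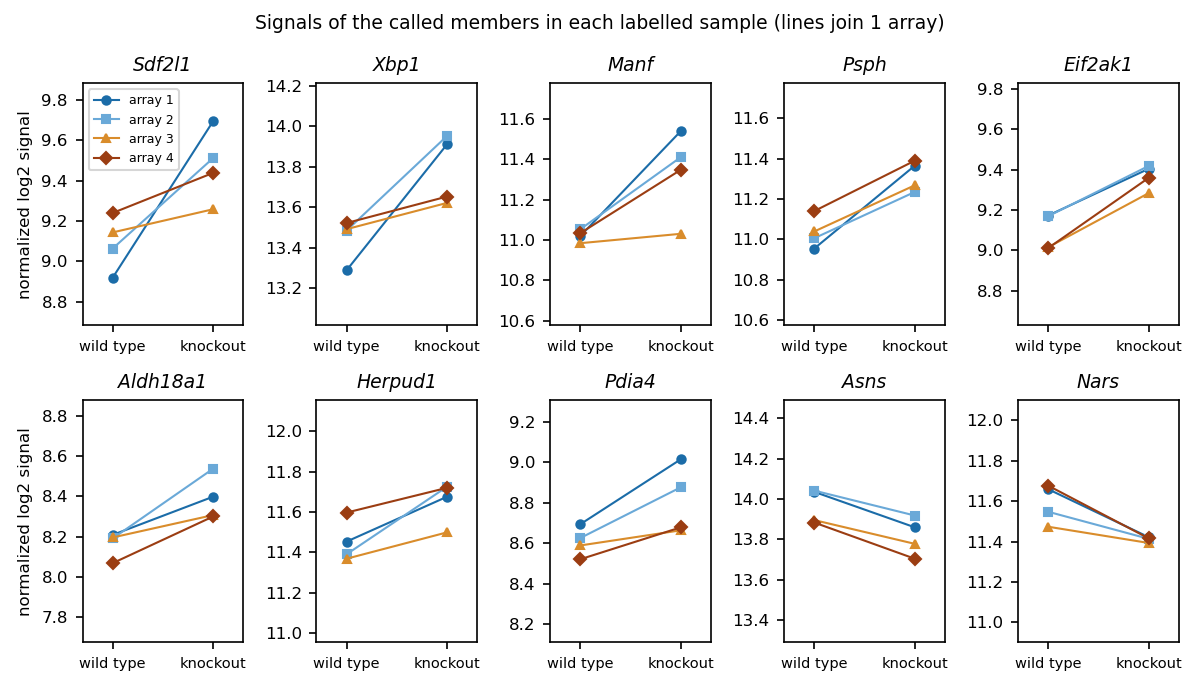
Normalised log2 signal of each sample (vertical axis) for the 10 genes with an adjusted p under 0.05, wild type in green channel and labelled knockout in red channel, with lines joining the samples of 1 array. Xbp1, Sdf2l1, Eif2ak1, Psph and Aldh18a1 have every labelled knockout signal above every wild-type signal, and Nars every one below.

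The ratios of the ER group varied over the arrays. Array 1 held the highest of the 4 ratios in 8 of 11 genes, and array 3 held the highest in none; over all genes, array 1 held it in 28.6% and array 3 in 21%. The wild-type sample of array 1 had the lowest of the 4 wild-type signals in 5 of these 11 genes, against 27% of all genes. The calls moved with single arrays: without replicate 1 and without replicate 2, 0 of the 11 ER genes passed (6 in each case at an unadjusted p under 0.05, limma), without replicate 3 only Manf (limma adjusted p = 0.0224), and without replicate 4 Xbp1 (0.0477) and Herpud1 (0.05 after rounding, just under the threshold). The median over the 11 genes stayed at 0.16 to 0.23 when any 1 array was left out. With the signals as processed by Feature Extraction, 0 of the 5 calls in this group remained.

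Other genes of the ER response were read from a list of 34. Of these, 4 rose and 3 fell, beside 9.12% and 5.84% of all genes tested. The median was 0.00, so the list as a whole did not lie above all genes. Hspa5, which encodes BiP, the main ER chaperone, had ratios of 0.74, 0.43, 0.02 and 0.39 (0.39 ± 0.30, SD, n = 4, limma adjusted p = 0.0438). Its order over the arrays was that of Manf and Sdf2l1, with array 3 near 0, and it passed without replicate 3 (limma adjusted p = 0.0217) but not without replicate 1, 2 or 4 (0.108, 0.144 and 0.0945). Dnajc3, a BiP co-chaperone and inhibitor of PERK, rose by 0.32 ± 0.16 (SD, n = 4, limma adjusted p = 0.0202). Creb3l2, an ER-anchored transcription factor, rose by 0.22 ± 0.08 (SD, n = 4, limma adjusted p = 0.0219). Sil1, the nucleotide exchange factor of BiP, went the other way and read -0.29, -0.25, -0.26 and -0.26 (limma adjusted p = 0.00767), the tightest of these values. Wfs1, an ER membrane protein, fell as well, with a mean of -0.27 ± 0.09 (SD, n = 4, limma adjusted p = 0.0152). With arrays centred on the median without loess, Sil1 and Wfs1 read 0.12 and 0.14, below the median of all genes in that setting, 0.28.

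Promoters of the ER arm genes were searched for the elements that ATF6 and XBP1 are known to bind, to set the letters beside the ratios. The windows run from 250 bases before to 50 bases after the RefSeq transcript start (GRCm38.p6) and were available for 37 of the 41 genes, not for Manf, Atf6, Nars and Wars. The ER elements searched, on both strands, were ERSE (CCAAT and CCACG with 9 bases between them), found in 0.119% of 32851 promoters, ERSE-II (ATTGG and CCACG with 1 base between them), in 0.0365%, and UPRE (TGACGTGG), in 0.676%. The letters CCACG occur in ERSE and ERSE-II, and also in the other strand of UPRE. ERSE was present in 4 of the 9 ER arm genes with a window, Calr, Canx, Creld2 and Pdia6, and ERSE-II in Herpud1. In the list of other ER genes, Hspa5 and Dnajc3 were among 5 genes with ERSE. The stretches below are 5′ to 3′ on the gene's strand, with the fixed letters of the element in capitals. Herpud1 is shown with ERSE-II and the others with ERSE. Promoters with ERSE belonged to genes with different ratios, from a mean of -0.05 for Canx to 0.39 for Hspa5.
Creld2: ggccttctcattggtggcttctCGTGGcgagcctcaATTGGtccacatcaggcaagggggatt
Calr: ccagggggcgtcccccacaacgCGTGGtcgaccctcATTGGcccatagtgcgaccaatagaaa
Canx: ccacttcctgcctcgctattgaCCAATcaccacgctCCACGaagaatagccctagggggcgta
Pdia6: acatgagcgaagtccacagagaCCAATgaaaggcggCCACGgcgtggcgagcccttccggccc
Hspa5: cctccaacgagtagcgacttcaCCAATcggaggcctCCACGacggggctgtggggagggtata
Dnajc3: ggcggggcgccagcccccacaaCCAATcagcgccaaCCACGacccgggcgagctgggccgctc
Herpud1: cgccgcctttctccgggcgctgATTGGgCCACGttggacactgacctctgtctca

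In GRCm38.p6 these stretches are chr15:88819498-88819560 (Creld2, plus strand), chr8:84847053-84847115 (Calr, minus strand), chr11:50325778-50325840 (Canx, minus strand), chr12:17266469-17266531 (Pdia6, plus strand), chr2:34772003-34772065 (Hspa5, plus strand), chr14:118937805-118937867 (Dnajc3, plus strand) and chr8:94386355-94386409 (Herpud1, plus strand). All lie upstream of the transcript start, and Creld2 and Calr hold the element on the opposite strand. Of the 9 genes with ERSE in these lists, 2 rose, Hspa5 and Dnajc3, and none fell, beside 9.12% and 5.84% of all genes tested. Their median log2 ratio was 0.09, with a range from -0.05 to 0.39. Xbp1, Sdf2l1 and Pdia4 rose with no match to these letters in their windows. A match describes the letters in the window and is no evidence of binding.

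Of the 4 kinases that phosphorylate eIF2α, only the haem-regulated kinase passed the test. Among all genes tested, 9.12% were higher and 5.84% lower. Eif2ak1, which encodes HRI, had ratios of 0.23, 0.25, 0.27 and 0.35 (0.27 ± 0.05, SD, n = 4, limma adjusted p = 0.00913). The 4 arrays were close to each other, and the labelled knockout signals, 9.28 to 9.42, all lay above the wild-type signals, 9.01 to 9.17. Eif2ak3, which encodes the ER sensor PERK, read 0.12, 0.18, 0.05 and 0.18 (0.13 ± 0.06, SD, n = 4, limma adjusted p = 0.077). Eif2ak2, the double-stranded RNA kinase PKR, had a mean of -0.07 and Eif2ak4, the amino acid sensor GCN2, a mean of -0.05, with 95% intervals of -0.20 to 0.05 and -0.14 to 0.04. The call of Eif2ak1 held in 13 of 14 alternative settings and was lost without replicate 2, at a limma adjusted p of 0.0501. The kinases act through phosphorylation, which an mRNA array does not measure.

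The translation machinery on which these kinases act was read from a list of 15 other eIF2 and eIF2B genes. None rose and 2 fell (0 and 4 at an unadjusted p under 0.05, limma), beside 9.12% and 5.84% of all genes at the adjusted threshold. A ratio below 0 on all 4 arrays was found in 10 of 15, against 18.6% of all genes, and the list median was -0.05. Eif2s1, which encodes eIF2α itself, read -0.13, -0.13, -0.27 and -0.15 (-0.17 ± 0.07, SD, n = 4, limma adjusted p = 0.0412). A dimmer probe of Eif2s1 had a mean of -0.02. Eif2s3x, the X-linked gene of eIF2γ, read -0.36, -0.77, -0.08 and -0.47 (-0.42 ± 0.28, SD, n = 4, limma adjusted p = 0.034), while its other probe had a mean of -0.07. In both genes only the brighter probe passed. Centred on the median without loess, Eif2s1 read 0.21, below the median of all genes in that setting, 0.28. In that setting 11 of the 15 genes were called higher and 0 lower, beside 10645 higher and 2326 lower of all 15759 genes.

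None of the 6 transcription factors of the ATF4 and CHOP axis passed the test, beside 9.12% higher and 5.84% lower among all genes tested. Atf4 came nearest, with ratios of 0.24, 0.24, 0.05 and 0.12 (0.16 ± 0.09, SD, n = 4, limma adjusted p = 0.0586), and its dimmer probe read 0.14, 0.17, 0.02 and -0.16 (limma adjusted p = 0.665). Atf4 protein is controlled largely at translation, so its mRNA is an incomplete readout of the pathway. Ddit3, which encodes CHOP, had a mean of 0.04 with a 95% interval of -0.06 to 0.14. Atf5, a stress factor translated like ATF4, had a mean of -0.01 (-0.10 to 0.08), and Cebpb and Cebpg, dimer partners in this axis, had means of -0.04 and -0.09. Atf3, an early stress factor, read 0.07, 0.25, -0.32 and 0.09 and so spanned 0. Its probe was dim, with 97.3% of genes tested brighter. When both channels had to be well above background it was left out and 5 factors were tested. At an unadjusted p under 0.05 (limma), 1 of the 6 factors, Atf4, would pass.

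Of the 6 target genes of the axis, 1 fell and none rose, beside 5.84% lower and 9.12% higher among all genes tested. The counts of the 6 were the same at an unadjusted p under 0.05 (limma). Asns, asparagine synthetase, a standard readout of ATF4 activity, read -0.18, -0.12, -0.12 and -0.18 (-0.15 ± 0.03, SD, n = 4, limma adjusted p = 0.0428). The values were close together on the 4 arrays, but the signals overlapped between the groups, 13.70 to 13.92 in the labelled knockout and 13.88 to 14.04 in the wild type. The direction of Asns depended on the scaling: centred on the median without loess, its ratio was 0.32 while the median of all genes was 0.28, and leaving out any 1 array ended the call (limma adjusted p = 0.0891 to 0.127). Trib3, a pseudokinase that restrains the pathway, had a mean of -0.13 ± 0.14 (SD, n = 4, limma adjusted p = 0.169), and Chac1, a glutathione-degrading enzyme, one of -0.09 ± 0.14. Ppp1r15a, the GADD34 subunit that directs dephosphorylation of eIF2α, and Sesn2, a leucine-sensing regulator of mTORC1, had means of 0.01 and 0.00.

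Ddit4 was the most variable of the 40 genes. Its product, REDD1, inhibits mTORC1 and responds to several stresses and to glucocorticoids. The log2 ratio was 0.20, -0.03, -0.48 and -0.98 on arrays 1 to 4 (-0.32 ± 0.52, SD, n = 4, limma adjusted p = 0.235). The mean was thus well within the spread between arrays, and no direction can be read from it.

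Other ATF4 and CHOP targets, 25 genes tested beyond the 41, gave 4 that rose and 3 that fell, with a median of 0.08. Over all genes tested, 9.12% rose and 5.84% fell. The highest ratios among them were those of amino acid transporters. Slc7a11, the cystine and glutamate exchanger xCT, read 0.57, 0.50, 0.51 and 0.43 (0.50 ± 0.06, SD, n = 4, limma adjusted p = 0.000877), and Slc1a4, the neutral amino acid transporter ASCT1 that carries serine, read 0.65, 0.48, 0.57 and 0.43 (0.53 ± 0.10, SD, n = 4, limma adjusted p = 0.00127). Both passed in 14 of 14 alternative settings. Jdp2, an AP-1 family repressor, rose by 0.24 ± 0.07 (SD, n = 4, limma adjusted p = 0.017). Bbc3 and Pmaip1, the pro-apoptotic genes PUMA and NOXA, fell, with means of -0.40 ± 0.31 and -0.26 ± 0.08 (SD, n = 4, limma adjusted p = 0.0462 and 0.0151). Slc7a11 and Slc1a4 thus rose while Bbc3 and Pmaip1 fell, though all are counted as targets of the axis. These genes were named by size of ratio among those called, and 18 of the 25 were not called.

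The element that ATF4 is known to bind with C/EBP partners, written here as CARE, TGATGNAA, occurred on either strand in 3.97% of all promoters. It was present in Asns, Chac1 and Trib3 among the targets, in Atf3, Pycr1, Gars and Herpud1 elsewhere among the 41 genes, and in 7 of the other targets, Slc7a11 and Slc1a4 among them. The stretches below place the element of Slc7a11, whose gene rose, beside those of Asns, which fell, and of Chac1, Atf3 and Gars, which did not pass the test.
Slc7a11: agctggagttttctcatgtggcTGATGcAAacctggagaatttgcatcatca
Asns: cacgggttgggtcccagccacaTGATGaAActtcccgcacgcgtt
Chac1: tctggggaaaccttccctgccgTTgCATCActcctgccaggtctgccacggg
Atf3: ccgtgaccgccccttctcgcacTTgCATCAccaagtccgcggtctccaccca
Gars: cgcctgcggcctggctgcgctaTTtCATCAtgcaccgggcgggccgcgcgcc

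These stretches are chr3:50443650-50443701 (Slc7a11, minus strand), chr6:7693210-7693254 (Asns, minus strand), chr2:119351027-119351078 (Chac1, plus strand), chr1:191183414-191183465 (Atf3, minus strand) and chr6:55037949-55038000 (Gars, plus strand) in GRCm38.p6. Capitals mark the fixed letters of the element, and Chac1, Atf3 and Gars hold it on the opposite strand. The stretch of Slc7a11 also holds a further copy, left in lower case near its end. Of 18 tested genes with the element in these lists, 4 rose and 3 fell, beside 9.12% and 5.84% of all genes tested. Their median log2 ratio was 0.00. The presence of these letters thus went with ratios on both sides of 0.

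Of the 8 tested enzymes of serine, one-carbon and proline synthesis, 2 rose and none fell, with a median of 0.10: Psph, 1 of the 3 enzymes of serine synthesis, and Aldh18a1, an enzyme of proline synthesis. Among all genes tested, 9.12% rose and 5.84% fell. Psph, the phosphatase of the last step of serine synthesis, read 0.41, 0.23, 0.23 and 0.25 (0.28 ± 0.09, SD, n = 4, limma adjusted p = 0.0135), and its labelled knockout signals, 11.23 to 11.39, lay above the wild-type signals, 10.95 to 11.14. A second, dimmer probe of Psph went the other way, with -0.08, -0.13, -0.26 and -0.13 (-0.15 ± 0.08, SD, n = 4, limma adjusted p = 0.0641). The direction of Psph therefore depends on the probe, and its call was lost when the probes were averaged. Without replicate 2 the adjusted p of the brighter probe was 0.0563.

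Phgdh and Psat1, the enzymes of the preceding steps of serine synthesis, each had a pair of probes of 1 sign. The brighter Phgdh probe read 0.12, 0.12, 0.02 and -0.05 (limma adjusted p = 0.459) and the other 0.28, 0.24, 0.25 and 0.07 (0.21 ± 0.10, SD, n = 4, limma adjusted p = 0.0313). The brighter Psat1 probe read 0.20, 0.03, 0.12 and 0.17 (0.13 ± 0.07, SD, n = 4, limma adjusted p = 0.089) and the other 0.28, 0.16, 0.27 and 0.08 (0.20 ± 0.09, SD, n = 4, limma adjusted p = 0.0359). In both genes the probe that represented the gene missed the threshold and the other passed it. With the probes of a gene averaged, Psat1 passed and Phgdh did not (limma adjusted p = 0.0843). All 3 enzymes had brighter-probe means above 0.

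**Figure D4:**
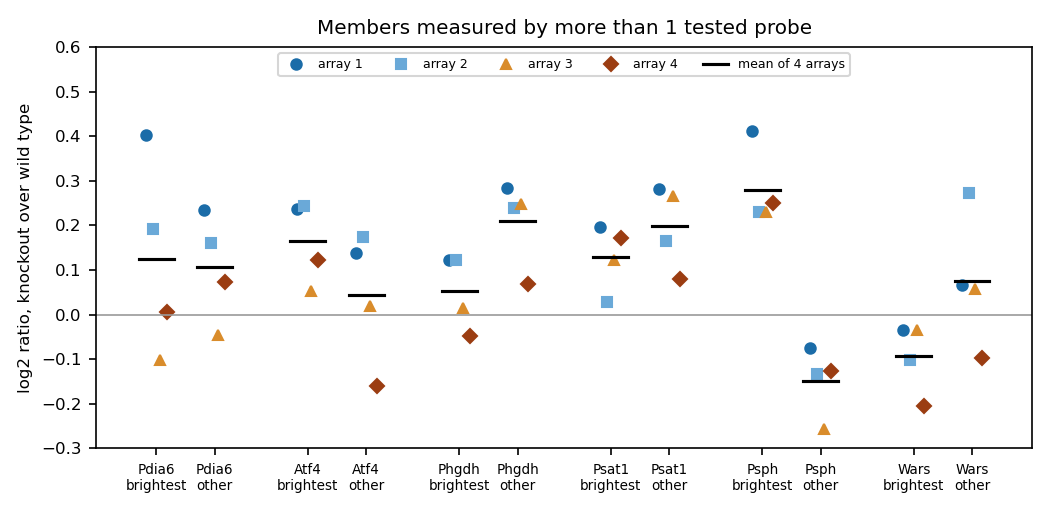
Log2 ratio of labelled knockout over wild type (vertical axis) for each probe of the genes with more than 1 tested probe, with 1 symbol per array and a bar for the mean. The Psph probes lie on opposite sides of 0, with means of 0.28 and -0.15, while both probes of Phgdh and of Psat1 have means above 0.

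Aldh18a1, which catalyses the first steps of proline synthesis, rose with ratios of 0.19, 0.35, 0.11 and 0.23 (0.22 ± 0.10, SD, n = 4, limma adjusted p = 0.0281), and the groups' signals did not overlap. Its adjusted p was 0.0539 to 0.108 when any 1 array was left out. The 4 folate enzymes did not pass. Shmt1, the cytosolic serine hydroxymethyltransferase, had a mean of 0.13 ± 0.12 (SD, n = 4, limma adjusted p = 0.127) and Shmt2, its mitochondrial counterpart, 0.03. Mthfd2, the mitochondrial enzyme that is a sensitive ATF4 target, had a mean of 0.07 with a 95% interval of -0.04 to 0.18, and Mthfd1, the cytosolic enzyme, one of -0.07.

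Markers of several cell types lay above all genes beside these groups. The counts below stand beside 9.12% higher and 5.84% lower among all genes tested. Of 10 astrocyte markers, 2 rose and none fell, with a median of 0.17 (0.17, 0.12, 0.18 and 0.17 on arrays 1 to 4), and their summed log2 signal was 17.94 to 18.01 in the labelled knockout against 17.78 to 17.82 in the wild type. Signals were summed before taking the log, so the brightest markers weigh most. Here that was Aldoc, 1 of the 2 that rose, with mean signals of 17.17 in the labelled knockout and 16.93 in the wild type. Of 10 markers of meningeal fibroblasts, 9 rose and none fell, with a median of 0.50 (0.58, 0.44, 0.24 and 0.68), though their summed log2 signals overlapped, 13.4 to 14.2 against 12.9 to 13.8. Cortical neuron markers lay as high as those of astrocytes: 2 of 8 rose and none fell, with a median of 0.17 (0.18, 0.21, 0.15 and 0.18), and their summed log2 signals, 15.15 to 15.30 in the wild type and 15.30 to 15.49 in the labelled knockout, met without overlap. For endothelium 2 of 8 rose, with a median of 0.11, and for choroid plexus 1 of 5 tested, with a median of 0.13. Of 10 markers of neurons in general, 2 rose and none fell, with a median of 0.05. Of 8 oligodendrocyte markers, 1 rose and 1 fell, with a median of 0.03. Mbp rose, at 0.77 by its brightest probe, with its other probes at 0.01 and 0.36. Ermn fell, at -0.29 by its brighter probe, with the other at 0.18. Of 8 microglia markers, 2 rose and none fell, with a median of -0.01. All markers in the astrocyte, meningeal and cortical lists were well above background. Array 3 had the lowest median of the meningeal list, as it had of the ER arm genes and of the ATF4 and CHOP factors and targets. The highest median was on array 4 for the meningeal list, at 0.68, and on array 1 for the ER arm genes, at 0.32. The part of any of these cell types in the changes of the serine enzymes, the transporters or the ER genes was not tested.

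The 5 aminoacyl-tRNA synthetases, which charge tRNAs with their amino acids and are induced by ATF4, all had means below 0 after loess. With arrays only centred on the median, where the median of all genes was 0.28, Nars and Mars stayed below it at 0.20 and 0.18, while Gars, Sars and Wars lay above it at 0.40, 0.35 and 0.37. Nars, for asparagine, fell, with ratios of -0.24, -0.13, -0.08 and -0.26 (-0.18 ± 0.09, SD, n = 4, limma adjusted p = 0.043); its labelled knockout signals, 11.39 to 11.42, lay below the wild-type signals, 11.47 to 11.68. The other 4 did not pass. Mars, for methionine, read -0.21, -0.09, -0.10 and -0.10 (limma adjusted p = 0.0788), and Sars, for serine, -0.20, -0.08, -0.08 and -0.11 (limma adjusted p = 0.0952). Gars, for glycine, had a mean of -0.12 ± 0.11 and Wars, for tryptophan, one of -0.09 ± 0.08 (SD, n = 4), with a dimmer Wars probe, for another transcript, at 0.07. Of these 5, 4 were below 0 on every array, against 18.6% of all genes. Among the 15 other cytosolic synthetases 5 were, and among all 20 together 9.

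The group's median relative to that of all genes also turned with the scaling. It was -0.12 after loess, where all genes had 0.01, and 0.35 after median centring alone, where all genes had 0.28. The ER arm genes did not turn, with medians of 0.20 and 0.58 under the same pair of scalings. Without loess the ratios vary with brightness, so the median of all genes is not a like reference for bright probes. Of the genes tested, 3.09%, 6.60% and 6.87% were brighter than Gars, Sars and Wars, against 26.2% and 48.4% for Nars and Mars. The part of brightness in the turn was not tested. Nars missed the threshold whenever any 1 array was left out, at a limma adjusted p of 0.0749 to 0.133. Of 15 other cytosolic synthetases, none passed the test, beside 9.12% higher and 5.84% lower among all genes tested. At an unadjusted p under 0.05 (limma), 1 of the 15 was higher and 2 were lower, and their median was -0.02. Hars, for histidine, read -0.19, -0.12, -0.14 and -0.10 (limma adjusted p = 0.0581).

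The 10 calls were of unequal firmness across the settings tried. Leaving out replicate 1, 2, 3 or 4 left 2, 0, 3 and 4 of the 10 genes past the threshold, and none of the 10 kept its call in each of these 4 settings. Of 17 called genes named from the other lists, 3 did so, namely Slc7a11, Slc1a4 and Sil1. The 17 were taken by size of ratio, up to 5 per list, so they are not a like set to the 10. Without replicate 2, 11 of the 40 genes were higher and 5 lower at an unadjusted p under 0.05 (limma). Eif2ak1 and Psph were the pair that remained without replicate 1, and Manf joined them without replicate 3. Starting from the processed signals or from the deposited log2 values left Eif2ak1, Psph and Aldh18a1. The share of all genes called also dropped in these settings, to 2.87% to 9.8% with 1 array left out and to 8.43% with processed signals. Among the 40 genes the share was 5%, 0%, 7.5% and 10% without replicate 1, 2, 3 and 4. Over all genes it was 4.1%, 2.87%, 5.1% and 9.8%. With processed signals 7.5% of the 40 genes were called, and with a normexp offset of 16 also 7.5%, against 10.9% of all genes. The 40 genes thus lay below all genes in both of these settings and without replicate 2.

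**Figure D5:**
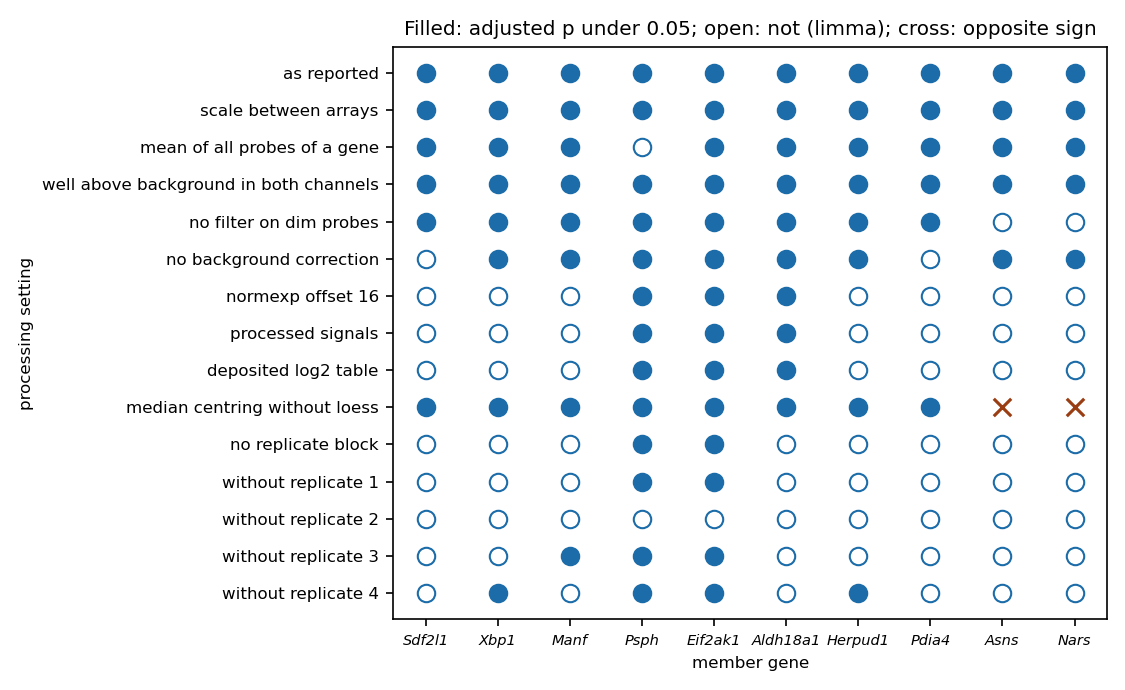
Calls of the 10 genes (horizontal axis) under each processing setting (vertical axis): a filled circle is an adjusted p under 0.05, an open circle is not, and a cross is a ratio of opposite sign. Eif2ak1 is open in 1 setting, while the ER arm genes are open in most settings that leave out an array. The ER arm genes are all open with a normexp offset of 16, processed signals, the deposited log2 table or no replicate block. Asns and Nars change sign under median centring, where the median of all genes is 0.28 (Asns 0.32, Nars 0.20).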

How the data were processed

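Spot intensities are those the authors deposited: per the file headers, median pixel intensity and local background in each channel, extracted with Agilent Feature Extraction (11.0.1.1 per the file headers, 10.7.3.1 per the submitters' processing notes), with a log10 ratio of processed signals. The deposited log2 table equals the log2 ratio of red over green processed signal. Ratios were recomputed from raw intensity with R 4.3.3 and limma 3.58.1: normexp background correction (offset 50), loess within arrays with control spots at weight 0, outlier spots left out, replicate spots averaged. Of 39429 probes, 27664 were kept, having passed the test against background in 1 channel or both on every array. Accessions were matched to RefSeq symbols, and the probe with the highest mean intensity stood for a gene. An intercept-only limma model (residual degrees of freedom 3, prior 4.47) was fitted to all kept probes, with Benjamini-Hochberg adjustment. The ratio pairs the samples of 1 replicate number. Signals per channel are after Aquantile. The calculation was tested on simulated data. The genes, lists and alternatives were chosen with earlier results of these data known. Called genes are named, and of the other lists up to 5 called by size or, with none, 2 of any size; all 40 genes are accounted for. The number of arrays limits the precision.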

Additional observations from a re-analysis of the deposited data

Results flagged for a closer look

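Among 78 genes and lists whose 4 array values were examined, 5 had 1 array set apart from the other 3 by more of the range than Dixon's 95% limit for 4 values; chance flags about 1 group in 20. Psph stood apart on array 1, at 0.41 against 0.23 to 0.25, and Mars on array 1, at -0.21 against -0.10 to -0.09. Eif2s1 stood apart on array 3, at -0.27. Dars, the cytosolic aspartyl-tRNA synthetase, read -0.53 on array 4 against -0.03 to -0.02 on the others. Ndrg2 read 0.11 on array 1 against 0.37 to 0.40.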

How the results depend on the processing

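As reported, 8 of the 40 genes rose and 2 fell, with 1437 and 920 over all genes. Without the replicate block, which treats the paired samples of an array as unpaired, 2 rose and 0 fell (456 and 224 over all genes; 6 and 4 in the other pathway lists, against 11 and 10). From the processed signals and from the deposited log2 table, 3 rose and 0 fell (779 and 550 over all genes, 5 lower in the other lists), and Shmt2 read -0.044. A normexp offset of 16 gave 3 higher and 0 lower (5 lower in the other lists); no filter on dim probes gave 0 lower; without background correction Ppp1r15a read -0.0021. Leaving out 1 replicate gave 0 to 4 higher and 0 lower among the 40 genes, 321 to 956 higher and 131 to 588 lower over all genes, 2 to 6 higher and 2 to 5 lower in the other lists, and a median of -0.13 to -0.050 for the ATF4 targets. Means that changed sign when 1 replicate was left out ranged over -0.063 to 0.11 (Ern1), -0.053 to 0.14 (Atf3), -0.024 to 0.0090 (Atf5), -0.048 to 0.028 (Sesn2), -0.063 to 0.0093 (Cebpb), -0.0090 to 0.034 (Ppp1r15a) and -0.013 to 0.058 (Shmt2).

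Median centring without loess, which leaves ratios that vary with brightness, moved the median of all genes to 0.28 and called 10645 genes higher and 2326 lower, 32 of the 40 genes higher, and 100 higher and 5 lower in the other lists. Group medians were then 0.58 for the ER arms, 0.37 for the kinases, 0.34 for the factors, 0.28 for the ATF4 targets, 0.33 for the serine enzymes and 0.35 for the tRNA synthetases. Signs turned for Asns (0.32), Atf3 (-0.37), Atf5 (0.39), Canx (0.42), Cebpb (0.29), Cebpg (0.092), Chac1 (0.24), Ddit4 (0.092), Eif2ak4 (0.28), Eif2s1 (0.21), Fpgs (0.017), Gars (0.40), Hars (0.22), Mars (0.18), Mthfd1 (0.29), Nars (0.20), the dimmer Psph probe (0.11), Sars (0.35), Sesn2 (0.33), Shmt1 (-0.052), Sil1 (0.12), Wars (0.37) and Wfs1 (0.14). Of these, values under 0.28 lay below the median of all genes. The cause was not tested. Scaling between arrays and requiring both channels above background kept all 10 calls. Averaging a gene's probes kept 9, lost Psph and added Psat1.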

Other observations

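Mitochondrial tRNA synthetases and further one-carbon genes held a few calls, beside 9.12% higher and 5.84% lower among all genes tested. Of 17 mitochondrial synthetases, Pars2 fell, with ratios of -0.68, -0.37, -0.23 and -0.21 (-0.37 ± 0.22, SD, n = 4, limma adjusted p = 0.0249), and Sars2 rose by 0.18 ± 0.09 (limma adjusted p = 0.0426); the median was -0.06. Of 22 other serine, glycine and folate genes, Mthfd2l, a mitochondrial folate enzyme, rose by 0.24 ± 0.09 and Tyms, thymidylate synthase, by 0.20 ± 0.04 (SD, n = 4, limma adjusted p = 0.0206 and 0.0198). Fpgs, which adds glutamates to folate, read -0.29, -0.29, -0.23 and -0.20 (-0.25 ± 0.05, SD, n = 4, limma adjusted p = 0.0113).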
